A study of Mus musculus with 3 samples.

Results

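The genes that bring glucose into the cell and carry it to lactate were examined in the mouse hepatoma line Hepa1c1c7. The 8 genes were chosen by name from those with a probe on the array: the glucose transporters Slc2a1 and Slc2a2, the hexokinases Hk1 and Hk2, the phosphofructokinases Pfkl and Pfkp, the pyruvate kinase Pklr and the lactate dehydrogenase Ldha. They are 8 of the 22908 genes with a symbol on the array, and had 11 probes. The cells had received a pCMV6 expression vector that was empty (empty vector), encoded the receptor tyrosine kinase Mst1r (Mst1r vector) or encoded the secreted protease inhibitor Slpi (Slpi vector), and RNA was collected a day later. Labelling started from 100 ng of RNA in each group. Each of the 3 groups held 1 single-colour array, so the groups could not be tested against each other, and the differences below lack a replicate check. The arrays measured transiently transfected cultures of a single tumour line, and in RNA from a whole culture fewer expressing cells and less RNA per cell cannot be told apart.

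Glycolysis splits glucose into pyruvate, and most of its steps can be run by several isozymes that tissues use differently. Hepatocytes take up glucose through Slc2a2 (GLUT2) and use the liver forms of phosphofructokinase (Pfkl) and pyruvate kinase (Pklr). Dividing cells and many tumours use Slc2a1 (GLUT1), the high-affinity hexokinases Hk1 and Hk2, the pyruvate kinase gene Pkm and the lactate dehydrogenase Ldha, which turns pyruvate into lactate. The question put to the arrays was which isozymes were detected in the hepatoma cells, and whether their signals differed between the vectors.

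The letters before the gene starts are shown first for the transporters and for the enzymes of the last steps, because in each pair only the first-named gene was detected on all 3 arrays (Slc2a1 and not Slc2a2, Ldha and not Pklr). Each run covers 250 bases before to 50 after a start in RefSeq (GRCm38.p6), on the strand of the gene. Where RefSeq gave more than 1 start, the one with more motif matches is printed. Capitals mark ACGTG, the core of sites bound by hypoxia-inducible factors, and GGGCGG, a GC box, on either strand.
Slc2a1, chr4:119108495-119108794, plus strand: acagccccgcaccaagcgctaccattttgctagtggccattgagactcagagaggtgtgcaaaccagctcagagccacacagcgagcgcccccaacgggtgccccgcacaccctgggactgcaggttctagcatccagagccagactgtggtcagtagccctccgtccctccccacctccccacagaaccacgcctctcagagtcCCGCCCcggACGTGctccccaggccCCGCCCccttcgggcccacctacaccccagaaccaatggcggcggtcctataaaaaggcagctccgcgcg
Slc2a2, chr3:28697653-28697952, plus strand: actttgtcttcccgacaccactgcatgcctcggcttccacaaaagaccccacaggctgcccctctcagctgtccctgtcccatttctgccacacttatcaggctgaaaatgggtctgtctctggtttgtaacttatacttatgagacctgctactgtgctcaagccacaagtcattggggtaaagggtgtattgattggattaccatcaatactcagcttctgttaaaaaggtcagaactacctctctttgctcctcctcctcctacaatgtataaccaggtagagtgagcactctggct
Ldha, chr7:46845554-46845853, plus strand: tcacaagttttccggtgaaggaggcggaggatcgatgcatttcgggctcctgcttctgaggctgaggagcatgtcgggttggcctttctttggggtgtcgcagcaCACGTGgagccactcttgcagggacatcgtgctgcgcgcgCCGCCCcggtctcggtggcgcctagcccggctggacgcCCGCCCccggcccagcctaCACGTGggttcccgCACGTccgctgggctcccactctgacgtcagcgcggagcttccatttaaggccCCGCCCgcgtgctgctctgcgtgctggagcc
Pklr, chr3:89136373-89136672, plus strand: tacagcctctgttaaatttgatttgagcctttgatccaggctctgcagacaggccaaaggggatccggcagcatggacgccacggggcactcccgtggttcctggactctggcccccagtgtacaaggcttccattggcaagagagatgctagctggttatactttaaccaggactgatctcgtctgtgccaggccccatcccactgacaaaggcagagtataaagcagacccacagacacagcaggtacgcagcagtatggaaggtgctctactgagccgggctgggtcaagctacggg

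The Slc2a1 run held 1 ACGTG and 2 GGGCGG. The Ldha run held 5 matches of ACGTG and 3 of GGGCGG, and at 2 places the letters extended to CACGTG, in which ACGTG is read and counted on each strand. No ACGTG or GGGCGG was present in the printed windows of Slc2a2 and Pklr, whose GC contents were 48.0% and 55.7% against 65.3% for Slc2a1, 67.3% for Ldha and a median of 52.7% over all 32851 promoter windows. Of the 11 starts listed for the 8 genes, ACGTG was found at 4 (Slc2a1, Hk1, Hk2 and Ldha), CACGTG at 1 and GGGCGG at 5 (Slc2a1, Hk2, Pfkl, Pfkp and Ldha). Among all promoter windows, 19.6% held ACGTG, 7.15% CACGTG and 35.7% GGGCGG. The promoter letters CCAAT and TATAAA, also searched on both strands, were found at 5 and 2 of the 11 starts and in 37.4% and 13.6% of all windows, and TATAAA was that of Slc2a1 and Pklr. These matches describe the letters alone, and binding was not measured here.

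A probe is called detected below when its spot was marked as well above background. This held for 48.5%, 46.7% and 48.1% of the 56605 probes with empty, Mst1r and Slpi vector. Log2 differences were taken after each array was scaled to the 75th percentile of its processed signal, which was 268, 229 and 254, respectively. The value after ± is the SD that repeated spots give for a difference, and covers no variation between cultures. The transfected genes did not check the labels. The Mst1r probe was not detected on any array, with processed signals of 4.15, 4.08 and 3.70 with empty, Mst1r and Slpi vector, and the brighter Slpi probe gave 6459, 3843 and 6680. Whether these probes lie within the cloned coding sequences is not given in the sources used here, and real-time PCR values were not analysed here. The names of the groups are therefore those of the arrays as labelled. The cells are labelled as liver, and 3 of 10 hepatocyte markers (Alb, Afp and Trf) were detected on all arrays, while Apob, Apoh and Hnf4a were not detected on any. In the upper rows of the arrays, which here means the first 33.3% of the rows, more genes differed between arrays than in the lower rows, so the row is given where it bears on a value.

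The hepatoma cells gave signal for Slc2a1, Hk1, Hk2, Pfkl, Pfkp and Ldha on all 3 arrays, whereas Slc2a2 was detected on none and Pklr on 1. At the brightest probe of each gene, the 6 detected genes differed between arrays by less than 1.5-fold. Both transporters had 1 probe each, and they fell on opposite sides of detection. The processed signal of Slc2a1 (NM_011400), the widespread basal glucose transporter, was 3966 with empty vector, 3725 when Mst1r was transfected and 3717 when Slpi was. The 3 values lay close to each other, and after scaling the Mst1r vector array was higher than empty vector by 0.14 ± 0.12 (log2) and the Slpi vector array differed by -0.02 ± 0.12. The difference of Mst1r vector was -0.09 without scaling, so its direction depends on the scaling. Slc2a2 (NM_031197), the transporter of hepatocytes, gave 5.71, 4.75 and 3.59, and was not detected on any array. No fold is given for it.

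The hexokinases trap glucose in the cell as glucose 6-phosphate. Hk1, the form of most tissues, gave 10196, 8460 and 9438 with empty, Mst1r and Slpi vector at its brighter probe (NM_001146100). The differences from empty vector were -0.04 ± 0.13 and -0.03 ± 0.13, both within the error between spots. A second Hk1 probe (NM_010438, row 39) gave 30.6, 44.9 and 49.3, detected on all arrays but below the signal minimum of 50, and differed from empty vector by 0.78 ± 0.53 and 0.77 ± 0.53, respectively. The probes of Hk1 thus gave different values, and the dim probe has an error too large to settle which holds. Hk2, the insulin- and hypoxia-regulated form that many tumours express, gave 848, 723 and 796 (NM_013820). Its differences were -0.0012 ± 0.14 and -0.01 ± 0.14, the smallest with Mst1r vector among the 6 detected genes.

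Hk3 and Hkdc1, further hexokinase genes, were also detected on all arrays at their brightest probes. Hk3 gave 65.9, 45.1 and 52.6, while its second probe was not detected on any array. Hkdc1 gave 90.7, 104 and 104. Hkdc1 had the largest differences of the hexokinase list, 0.43 ± 0.27 with Mst1r vector and 0.27 ± 0.27 with Slpi vector. It was higher than empty vector under each of the 4 other scalings, by 0.20 to 0.46 with Mst1r vector and 0.03 to 0.44 with Slpi vector.

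Phosphofructokinase commits the sugar to glycolysis. Pfkl, the liver form, gave 940.3, 787 and 1002 with empty, Mst1r and Slpi vector (NM_008826), and Pfkp, the platelet form found in many tumours, gave 655, 548 and 705 (NM_001291071). The order of the arrays was the same for both genes. With Mst1r vector each differed by -0.03 ± 0.14 from empty vector, and with Slpi vector Pfkl differed by 0.17 ± 0.14 and Pfkp by 0.18 ± 0.14. These differences of Slpi vector turned to -0.07 and -0.06 under spike-in scaling. Between the vector arrays Pfkl was lower with Mst1r vector by -0.20 ± 0.14, and by -0.35 to -0.06 over the alternatives. Pfkp gave -0.21 ± 0.14 at its brighter probe, and -0.36 to -0.08 over the alternatives, while its second probe gave -0.02 ± 0.27. The second Pfkp probe (NM_019703) gave 186, 151 and 171 and differences of -0.07 ± 0.27 and -0.05 ± 0.27 from empty vector. The value of Slpi vector was thus not seen at both probes, but with errors of this size the probes cannot be told apart. Pfkm, the muscle form, was detected on all arrays too, at 2198, 1658 and 2244, so every phosphofructokinase gene was detected in these cells.

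Pklr encodes the pyruvate kinase of liver and red cells. Its probe (NM_013631) gave 4.33 and 8.49 with empty and Slpi vector and 26.0 with Mst1r vector, where alone it was detected. The fold was at least 1.61 against empty vector and at least 1.75 against Slpi vector, and the signal was under 50 on every array, so it does not enter the counts below. The spot lies in row 91. Among gene probes with a single spot that were under 15 on both other arrays, 475 of 7008 in the upper rows reached or passed the Pklr signal on the Mst1r vector array (6.78%, 95% exact binomial interval 6.20 to 7.39), against 91 of 18626 in the lower rows (0.489%, 0.394 to 0.600). The part of the row in the Pklr value was not tested. Pkm, the other pyruvate kinase gene, gave 39936, 32893 and 39690 at its brighter probe, detected on all arrays, and differed by -0.05 ± 0.08 and 0.07 ± 0.08.

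**Figure D1:**
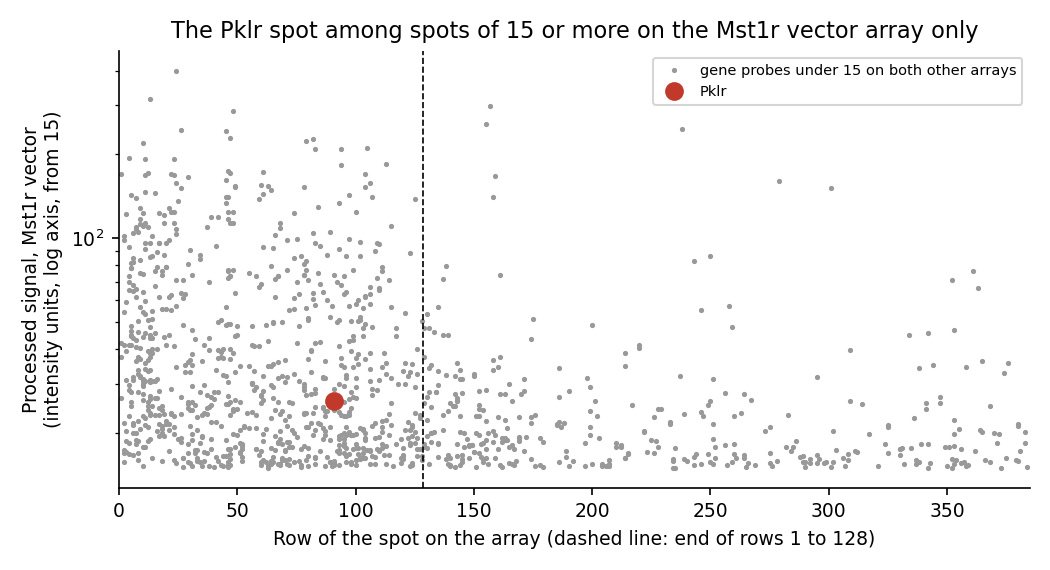
Processed signal on the Mst1r vector array (intensity units, log axis that starts at 15) against the row of the spot, for gene probes with a single spot that were under 15 on both other arrays. Each grey point is 1 probe and the red point is Pklr, at 26.0 in row 91, on the side of the dashed line where such spots are denser.

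Ldha (NM_001136069) had 2 probes. The brighter gave 115939, 107558 and 110084 with empty, Mst1r and Slpi vector, and no spot was saturated on any array. After scaling, Mst1r vector was higher than empty vector by 0.12 ± 0.08, which turned to -0.11 without scaling, and Slpi vector differed by 0.0035 ± 0.08. The second probe gave 3254, 2725 and 3218, with differences of -0.03 ± 0.12 and 0.06 ± 0.12. The difference of Mst1r vector was thus not seen at both probes, but the ranges given by the errors of the 2 probes overlap. Ldhb, which favours the return of lactate to pyruvate, was not detected with empty or Mst1r vector at either probe, and 1 probe gave 40.1 on the Slpi vector array (row 87, at least 2.24-fold).

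**Figure D2:**
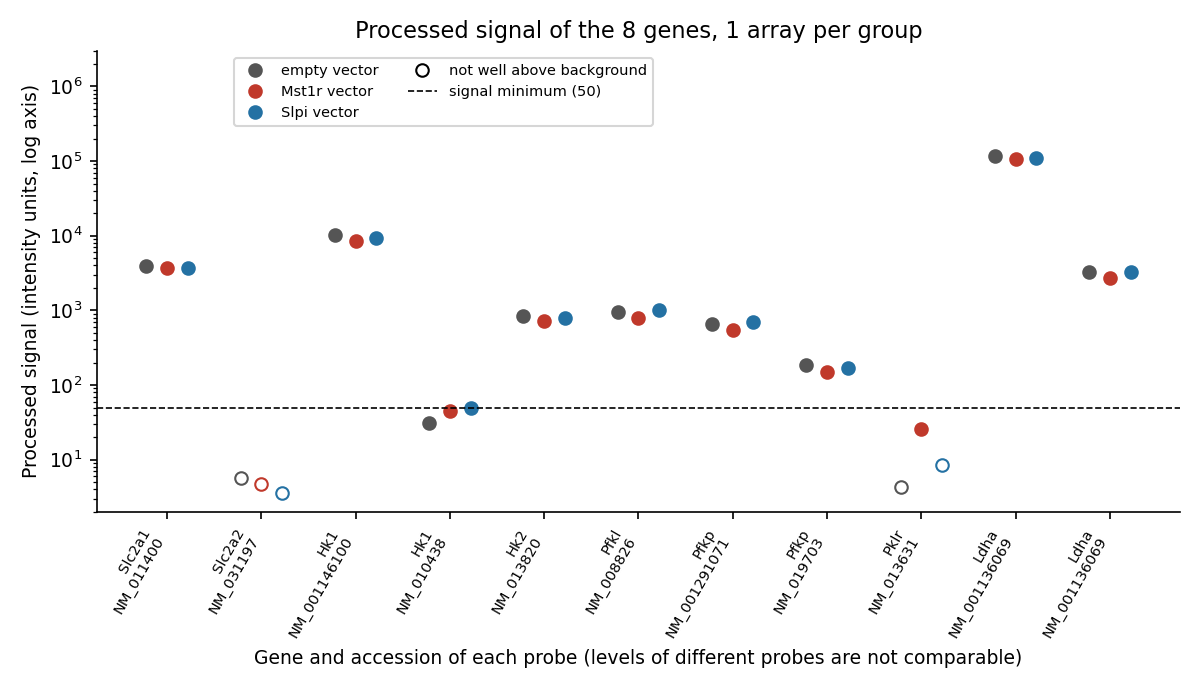
Processed signal (intensity units, log axis) of the 11 probes of the 8 genes on the empty, Mst1r and Slpi vector arrays, 1 point per array. Filled points were well above background and open points were not, so Slc2a2 has 3 open points, Pklr has 1 filled point, and the other 9 probes have 3 filled points each.

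Of the 8 genes, 6 were detected on all 3 arrays, against 54.4% of the genes with a symbol. Of the 11 probes, 6 lie in the upper rows. At least a 2-fold difference with a signal over 50 on the brighter array was found for 0 of 6 with Mst1r vector, where 5.53% of all genes tested passed this limit, for 0 of 6 with Slpi vector (3.93%), and for 0 of 6 between the vector arrays (5.02%). At 1.5-fold the counts were again 0 of 6, against 9.03%, 4.88% and 8.92%. With shares of this size in the background, a count of 0 of 6 does not set these genes apart. The background itself differed by position: in the upper rows the shares at 2-fold were 11.6%, 9.82% and 10.3%, and in the lower rows they were 1.98%, 0.490% and 1.99%.

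At the brightest probe of each gene, the 6 differences ran from -0.04 to 0.14 with Mst1r vector and from -0.03 to 0.18 with Slpi vector, and 4 of 6 were within the error between spots in each comparison. Those outside it were Slc2a1 and Ldha with Mst1r vector, and Pfkl and Pfkp with Slpi vector. This error is a single SD, so some unchanged genes also fall outside it, and lying outside does not mark a gene as changed. Among 7456 genes with a symbol, detected on all arrays and with a mean signal over 500, the 5th to 95th percentiles ran from -0.35 to 0.28 with Mst1r vector and from -0.17 to 0.19 with Slpi vector. All 6 genes lay inside both ranges. Both comparisons share the empty vector array. Between the vector arrays the 6 genes ran from -0.21 to 0.16, and 2 of 6 were within the error between spots.

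**Figure D3:**
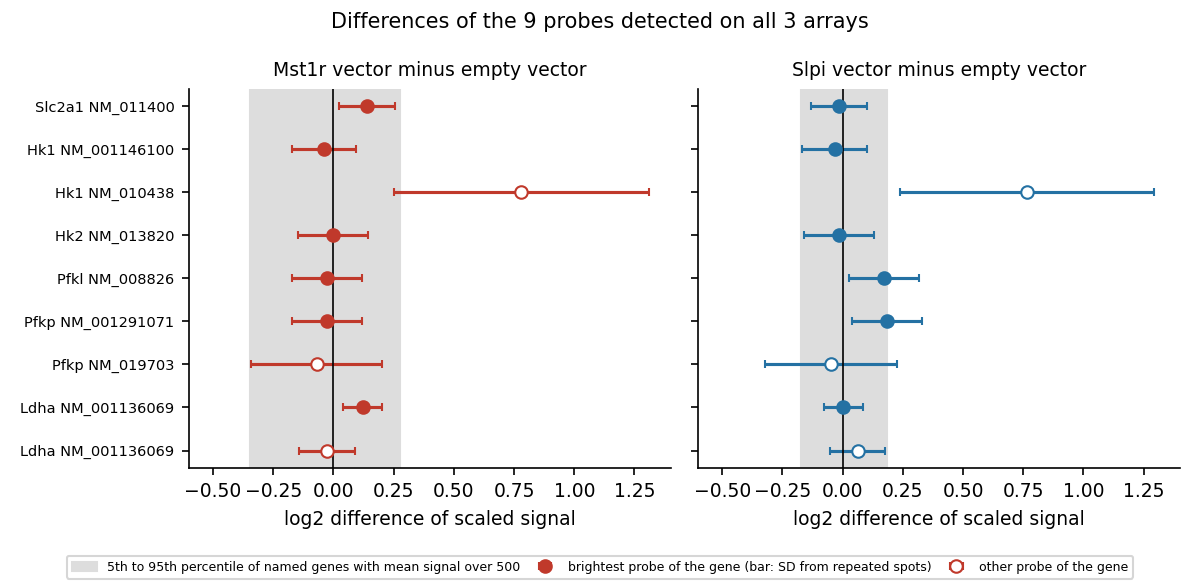
Log2 difference of scaled signal from empty vector for the 9 probes detected on all arrays, with Mst1r vector on the left and Slpi vector on the right. Bars are the SD that repeated spots give for a difference, and the grey band is the 5th to 95th percentile of the 7456 genes with a mean signal over 500. The dim Hk1 probe at 0.78 and 0.77 is the point outside the bands on both sides. Its signals are under 50, where the error is larger, so the band of these brighter genes is no measure for it.

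The size of these differences is that of the scaling between arrays. Relative to the 75th percentile, other scalings moved every gene by -0.23 (no scaling) to 0.03 (median) with Mst1r vector, and by -0.24 (spike-in controls) to 0.17 (median) with Slpi vector. Of the 6 detected genes, Slc2a1, Pfkl and Pfkp kept the sign of their difference between the vector arrays under all alternatives, with Slc2a1 at 0.0034 to 0.29. None of the 6 kept the sign of its difference from empty vector under all alternatives in either comparison. Over 171 values under the alternatives, the largest size was 0.37, that of Hk1 with its dim probe averaged in, and 0 reached 1.5-fold.

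**Figure D4:**
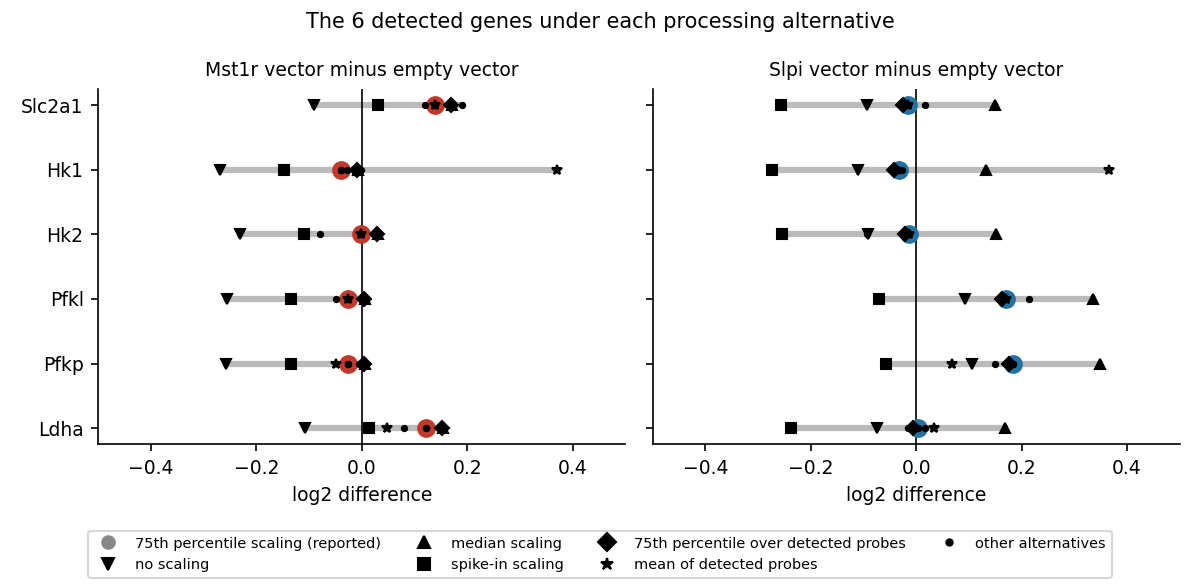
Log2 difference from empty vector of the 6 genes detected on all arrays under each processing alternative, for Mst1r vector (left) and Slpi vector (right). The large point is the value at 75th percentile scaling, the symbols are alternatives and the grey line is their range, which crosses 0 for each gene on both sides and reaches 0.37 for Hk1 with Mst1r vector.

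The same description was made for the pathway around the 8 genes. Of 43 genes of glucose uptake, hexokinase, upper and lower glycolysis, and lactate and pyruvate, 29 were detected on all arrays and 8 on none at their brightest probe. With Mst1r vector, 9 of 28 genes over the signal minimum were higher than empty vector and 19 lower, with a median of -0.04 beside -0.05 over all features tested, and without scaling 2 were higher and 26 lower. The Slpi vector array had 15 genes above empty vector and 13 below, with a median of 0.0084 beside 0.0070, and the split was 24 to 4 under median scaling and 2 to 26 under spike-in scaling. The 2-fold limit was passed by 3 of 28 genes with Mst1r vector (5.53% of all genes tested) and by 2 of 28 with Slpi vector (3.93%), counts too small to read against the background. All were in the lactate and pyruvate list, and all but Ldhd lie in the upper rows, where the background was 11.6% and 9.82%.

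Aldolase splits the phosphorylated sugar. Aldoa, the form of muscle and most dividing cells, gave 101384, 81006 and 95290 and was detected on all arrays. Aldoc, the brain form, was printed on 10 spots and therefore had a small error. It gave 638, 415 and 652, and was lower with Mst1r vector than with empty vector by -0.39 ± 0.05, and by -0.62 to -0.36 under the other scalings. Its second probe, also printed on 10 spots, gave -0.47 ± 0.09. With Slpi vector Aldoc differed by 0.11 ± 0.05, which turned to -0.13 under spike-in scaling.

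Between the vector arrays, all 7 detected genes of upper glycolysis had lower values on the Mst1r vector array, with a median of -0.20 beside -0.05 over all features. Besides Pfkl, Pfkp and Aldoc (-0.50 ± 0.05), they were Gpi1 (-0.12 ± 0.08), Pfkm (-0.28 ± 0.12), Aldoa (-0.08 ± 0.08) and Tpi1 (-0.20 ± 0.08). Under spike-in scaling 5 of the 7 were lower. Among the 7456 genes with a mean signal over 500, the 25th percentile of this comparison was -0.18 and the 5th was -0.38. A median of -0.20 is thus near the lower quartile of such genes, and the share of all genes that were lower was not counted. In lower glycolysis, which holds Gapdh, Pgk1, Pgam1, Eno1, Eno3 and Pkm, 2 of 6 detected genes were higher and 4 lower at their brightest probes, with a median of -0.07. All 6 were higher under spike-in scaling. The 2 higher genes were Gapdh (0.02 ± 0.08) and Eno1 (0.09 ± 0.08), and this direction held at their brightest probes only. Every other Gapdh probe was lower, from -0.61 to -0.08, and the other Eno1 probe gave -0.13 ± 0.12. Pgk1, the first enzyme of the pathway to make ATP, had the largest differences from empty vector among the 6 genes, 0.11 ± 0.08 and 0.16 ± 0.08. Both turned below 0 under another scaling, to -0.12 and -0.09.

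Among the transporters, Slc2a3, the high-affinity form known from neurons and tumours, gave 1763, 1072 and 1774. It was lower with Mst1r vector by -0.49 ± 0.12 (row 84), and by -0.72 to -0.46 under the other scalings, while its second probe was not detected on any array. With Slpi vector Slc2a3 differed by 0.09 ± 0.12. Slc2a4, the insulin-responsive transporter of muscle and fat, was not detected. Slc2a5, a fructose transporter, was detected with Mst1r vector only, at 41.1 against 8.51 and 7.54, at least 2.55-fold above empty vector (row 59).

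Among pathway genes with a signal over 50 on the brighter array, those past 2-fold were genes of lactate and pyruvate. Slc16a3, an exporter of lactate, gave 245, 25.8 and 24.5 with empty, Mst1r and Slpi vector, and had differences of -3.02 ± 0.42 and -3.24 ± 0.42. The empty vector array alone was high, and the only Slc16a3 probe lies in row 49. Ldhc, the lactate dehydrogenase of testis, gave 34.7, 85.2 and 25.5 in row 70, a difference of 1.53 ± 0.42 with Mst1r vector. Its other 2 probes did not show it: the probe in row 28 was detected with empty vector only, and the probe in row 307 on no array. Pdk2, a kinase that inhibits pyruvate dehydrogenase, gave 26.6, 21.2 and 95.7 in row 86, a difference of 1.92 ± 0.42 with Slpi vector. At the brightest probe of each gene, only Ldhd, a dehydrogenase of D-lactate, passed the limit in the lower rows. It gave 62.3, 22.1 and 42.0 in row 141, with -1.26 ± 0.53 with Mst1r vector. A dimmer Pdk1 probe in the lower rows also passed it with Mst1r vector, and is described in the last paragraph. The part of the position in these values was not tested. Slc16a1, the lactate transporter of most cells, gave 5986, 4162 and 5545 and differed by -0.29 ± 0.13 and -0.03 ± 0.13.

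**Figure D5:**
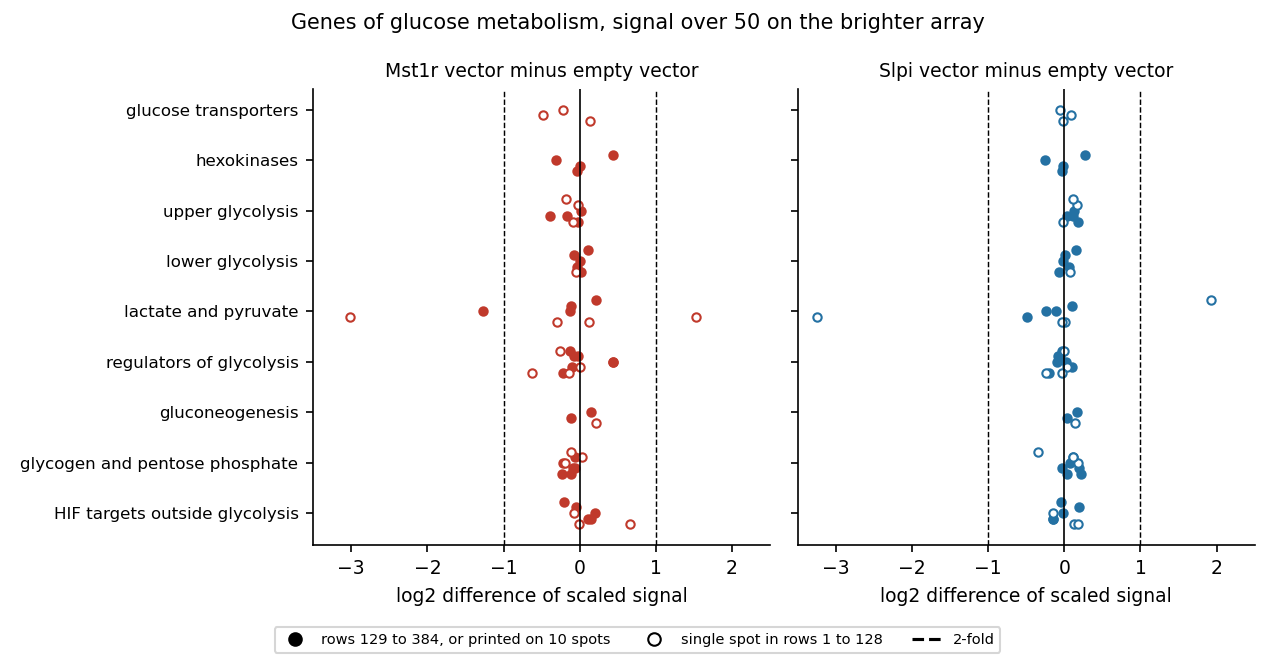
Log2 difference of scaled signal from empty vector for each gene of 9 lists whose signal was over 50 on the brighter array, with Mst1r vector on the left and Slpi vector on the right. Open points are single spots in the upper rows, filled points are all others, and dashed lines mark 2-fold: the points beyond them are genes of the lactate and pyruvate list, Slc16a3, Ldhc and Ldhd on the left and Slc16a3 and Pdk2 on the right.

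Among the 6 detected genes of the 8, Pfkp had the largest difference at the brightest probe. The genes nearest to it in both differences from empty vector were Tomm5, Smpd1 and Clptm1, at distances of 0.0049, 0.0054 and 0.0059 (log2) over the 3 arrays. Of the 12456 other detected genes, 855 lay within 0.1 of Pfkp.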

How the data were processed

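Per the file headers, the authors extracted spot intensities with Feature Extraction 12.0.3.1 (another version than the methods name) from arrays designed on mm9. The deposited processed signal is background-subtracted, corrected for spatial trends, linear and not scaled between arrays. The deposited files also hold 0 or 1 flags for spots well above background, saturated or outlying. A deposited table of the whole series holds intensities that were within 0.01 (log2) of the scanner values for 99.95% of values. The 3 arrays shared 1 slide and 1 scan, and their place on the slide cannot be separated from the group.

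Log2 processed signal was averaged per probe over spots not marked as outliers, and the 75th percentile over the 56605 gene probes of each array was subtracted, the scaling of the methods. Probes were named through RefSeq accessions (GRCm38.p6 table, names and promoter sequences only), which gave a symbol to 32994 probes. A gene is represented by its brightest probe, and a signal over 50 on the brighter array was asked for counts, the minimum of the methods. The fold limits of 2 and 1.5 were set here. The spot SD came from probes printed at least 10 times (0.70 below a log2 signal of 3, 0.19 between 6 and 8, 0.057 above 14). A fold is a bound where only the brighter array was well above background, with the dim side at its own signal or, where that is higher, the lowest detected signal (18.9, 18.8 and 16.6 on the empty, Mst1r and Slpi vector arrays). Such a bound holds at 75th percentile scaling and leaves out the error between spots. The number of arrays limits the precision, and the binomial interval covers counting error only.

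The members and lists were chosen with earlier results of these data known. The named genes are the 8 members, their isozymes, listed genes at least 1.5-fold apart, for each vector the most different gene of a list, and the 3 nearest in pattern to the most different detected member. Some of the isozymes are not reported here. The alternatives were 4 other scalings, quantile normalization, normexp background correction with limma 3.58.1 (offset 50), the series table, the mean of detected probes, lower rows only, flagged spots kept, and signal minimums of 0 (none) and 200. Python 3.11.15, pandas 2.3.3 and scipy 1.17.1 were used, and the scripts were tested on simulated data.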

Additional observations from a re-analysis of the deposited data

How the results depend on the processing

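The count of the 8 genes at least 2-fold apart stayed at 0 in each comparison under the alternatives tried, except that without a signal minimum it was 1 in each of the 3 comparisons. This is Pklr at its measured signals, which were not above background on the empty and Slpi vector arrays. Its bounds at 75th percentile scaling, 1.61-fold and 1.75-fold, are under 2-fold and leave out the error between spots. Of 171 values of the 6 detected genes under alternatives, 137 moved by less than the error between spots and 34 by more. Some alternatives could move a value little or not at all. The series table holds nearly the same intensities, flagged single spots were kept in any case, and a gene with 1 probe has no other to average. The 137 is therefore no measure of stability. The median of the 28 pathway genes over the signal minimum (27 between the vector arrays) followed the scaling. It was -0.27 without scaling for Mst1r vector against empty vector (-0.04 with the 75th percentile). For Slpi vector against empty vector it was 0.17 with median scaling and -0.23 with spike-in scaling (0.0084), and for Mst1r vector against Slpi vector it was -0.22 with median scaling, -0.23 without scaling and 0.0503 with spike-in scaling (-0.08). These scalings move all genes of an array together. No paired analysis was possible because each group held 1 array. Below a log2 signal of 6 the error between spots limits what can be seen: the SD of single spots was 0.37 between 4 and 6 and 0.70 below 3.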

Other observations

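Of 7 genes of gluconeogenesis, Fbp1, Fbp2 and Pck1 were not detected on any array, and G6pc, the phosphatase that releases glucose from the liver, was detected with Mst1r vector only at 22.1 (at least 1.37-fold above empty vector). Pck2, the mitochondrial form of the Pck1 enzyme, gave 1320, 1305 and 1374 with empty, Mst1r and Slpi vector, and differed by 0.21 ± 0.12 and 0.14 ± 0.12, which turned to -0.02 without scaling and -0.10 with spike-in scaling, respectively. Slc37a4, the transporter of glucose 6-phosphate, differed by 0.14 ± 0.12 and 0.16 ± 0.12, which turned to -0.09 and -0.08 under the same scalings. In glycogen metabolism, Gys1 and Pygb, the synthase and phosphorylase of muscle and brain, were detected on all arrays, and Gys2 and Pygl, those of liver, on none. Pygb differed by -0.23 ± 0.14 with Mst1r vector, and Pgm2 by -0.35 ± 0.27 with Slpi vector. Between the vector arrays, 8 of 9 detected genes of glycogen and the pentose phosphate pathway were lower with Mst1r vector (median -0.26, beside -0.05 over all features), among them Pgd (-0.38 ± 0.12), G6pdx (-0.34 ± 0.13) and Tkt (-0.28 ± 0.11), and 6 of 9 under spike-in scaling. Among all genes with a symbol detected on all arrays, the 25th percentile of this comparison was -0.19 and the 5th was -0.45. For those with a mean signal over 500 they were -0.18 and -0.38. The share of all genes that were lower was not counted.

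Txnip, an inhibitor of glucose uptake, gave 1980, 1098 and 1842 and was lower with Mst1r vector by -0.62 ± 0.12 (row 82), and its second probe gave -0.40 ± 0.42. Pfkfb2, a regulator of phosphofructokinase, differed by -0.23 ± 0.14 with Slpi vector. Of 8 targets of hypoxia-inducible factors outside glycolysis with a signal over 50, 4 were higher with Mst1r vector than with empty vector and 4 lower, and 1 was higher and 7 lower without scaling. Ndrg1 had the largest difference of these, 0.66 ± 0.12 at 1832, 2467 and 1961 (row 96). Car9, a target with signals under 50 on every array (43.2, 35.8 and 32.8), differed by -0.32 ± 0.53 with Slpi vector. The second Car9 probe was detected with empty vector only, and Adm was not detected. Among the hepatocyte markers, Alb was higher with Mst1r vector by 0.57 ± 0.13 (row 94), and its second probe (row 264) gave 0.44 ± 0.12. Trf differed by 0.05 ± 0.08 with Slpi vector, Fgb was detected with Mst1r vector only (28.4, at least 1.76-fold) and Apoa1 with Slpi vector only (43.1, at least 2.40-fold). Among markers of other cell types, Des (227, 37.9 and 58.2, row 55), Krt19 (53.3, 28.8 and 59.2, row 58) and Col3a1 (56.6, 64.6 and 38.3, row 120) were at least 1.5-fold apart between a pair of arrays. Of 13 such markers, 8 were detected on all arrays, among them Col1a1 at 6508, 6677 and 5718. The other 5 were detected on no array, as were 37.7% of the genes with a symbol.

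The probes of a gene did not always give the same difference, and the following genes were chosen after their values were seen. A Pdk1 probe in row 338 gave 185, 337 and 209, a difference of 1.09 ± 0.22 with Mst1r vector, while the other Pdk1 probes detected on all arrays gave 0.21 ± 0.12 and 0.01 ± 0.14. A Gapdh probe in row 236 gave 61919, 37187 and 63146, a difference of -0.51 ± 0.08 with Mst1r vector, and the other 5 Gapdh probes gave -0.16 to 0.0066. Mlxipl, a glucose-responsive transcription factor, differed by 0.44 ± 0.13 with Mst1r vector at its brighter probe and by -0.18 ± 0.27 at the dimmer probe.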
